A study of Mus musculus with 3 samples.

Results

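The 4 Hox clusters of the mouse hold the Hox genes, which encode homeodomain transcription factors. They were examined for trimethylation of histone H3 at lysine 4 (H3K4me3), found at promoters that are active or poised, in adult hippocampus. Members were chosen by position: every peak that overlapped 1 of 4 windows of genome build mm9, Hoxa on chromosome 6 at 52100000 to 52220000, Hoxb on chromosome 11 at 96050000 to 96240000, Hoxc on chromosome 15 at 102740000 to 102880000 and Hoxd on chromosome 2 at 74490000 to 74610000. The windows span 570 kb, and 38 listed Hox genes belong to them: 10 Hoxa, 10 Hoxb, 9 Hoxc and 9 Hoxd genes. The windows held 4 of the 18515 peaks of the wild-type library and 8 of the 19631 peaks of the transgenic library. Joined where they overlapped, these 12 peaks formed 8 of the 20211 regions of the series. Of the 8 regions, 4 had a peak in both libraries, against 85.9% of all regions.

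Both groups were adult male C57/DBA F1 hybrid mice. The HD group carried N171-82Q, a transgene for an N-terminal fragment of mutant huntingtin that is driven by the mouse prion protein promoter and used as a model of Huntington's disease; the WT group was made up of wild-type littermates. Each genotype gave 1 chromatin immunoprecipitation sequencing library, from hippocampi pooled from 3 mice. No spread between animals can therefore be given, and the values below compare a single pair of pooled libraries, with no test of genotype. An input DNA sample belongs to the series and was not analysed here. The hippocampus label was not checked against marker genes, because no gene annotation of build mm9 was used here, and for the same reason no peak was assigned to a single Hox gene.

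As background, Hox genes pattern the body from hindbrain to tail: genes with low numbers, such as Hoxb1, act in the hindbrain, and those with high numbers, such as Hoxd13, act in the caudal trunk, limbs and urogenital tract. Within a cluster the genes lie in the order of these domains. The hippocampus derives from the forebrain, which lies in front of the Hox domains, and there the clusters are known to be held silent by Polycomb complexes with the mark H3K27me3. Promoters rich in the dinucleotide CpG can carry H3K4me3 and H3K27me3 together, a state called bivalent. A tissue signal is an average over cells, so a mark on few cells cannot be told apart from a faint mark on many.

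Hoxb was bare of called peaks: neither library had a peak in its 190 kb. Promoters of 3 of its 10 genes are shown because they lie in the cluster where no mark was called in either genotype. They were the only Hoxb promoters in the set used and were not picked to represent the cluster. The sequences are RefSeq's, from build GRCm38.p6, whose positions cannot be set beside those of the mm9 peaks. Each is the 250 bases before the transcription start, on the plus strand, with every CG in capitals. Hoxb1 lies towards the head end of the gene order, Hoxb4 in the middle and Hoxb8 towards the tail end.
Hoxb1 (chr11:96365508-96365757): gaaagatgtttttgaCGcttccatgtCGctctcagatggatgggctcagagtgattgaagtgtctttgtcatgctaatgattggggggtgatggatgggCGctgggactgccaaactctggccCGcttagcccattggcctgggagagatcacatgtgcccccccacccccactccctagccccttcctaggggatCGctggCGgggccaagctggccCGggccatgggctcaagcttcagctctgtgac
Hoxb4 (chr11:96318017-96318266): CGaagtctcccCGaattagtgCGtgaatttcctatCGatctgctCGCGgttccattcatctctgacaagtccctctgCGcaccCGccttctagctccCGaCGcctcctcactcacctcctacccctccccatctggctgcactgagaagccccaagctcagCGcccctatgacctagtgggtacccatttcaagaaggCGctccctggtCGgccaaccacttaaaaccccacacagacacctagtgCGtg
Hoxb8 (chr11:96281655-96281904): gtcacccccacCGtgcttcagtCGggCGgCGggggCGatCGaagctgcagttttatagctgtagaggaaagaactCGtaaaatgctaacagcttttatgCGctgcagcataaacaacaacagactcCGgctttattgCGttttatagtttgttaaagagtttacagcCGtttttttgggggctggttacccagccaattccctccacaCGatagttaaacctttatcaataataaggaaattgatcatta
The Hoxb1 promoter held 7 CG, the Hoxb4 promoter 14 and the Hoxb8 promoter 12, against a median of 6 (quartiles 2 and 16) over all 32851 promoters of the table. CG reads the same on both strands, and 92.1% of all promoters held at least 1. Of the 3, only Hoxb4 had both a GC content above 50% and a ratio of observed to expected CG above 0.6. Its values were 58% and 0.76. Hoxb8 had the highest ratio of the 3, 0.97, at a GC content of 44.4%, and Hoxb1 the lowest, 0.32, at 59.2%.

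Hox promoters in the table, those 3 included, were of mixed CG content. It matched 22 of the 38 members, with 24 promoters, which held a median of 12.5 CG (quartiles 7 and 20). Both criteria for CG richness were met by 11 of the 24, 45.8%, against 30.8% of all promoters. The clusters were unevenly represented, with 10 Hoxa, 10 Hoxd, 3 Hoxb and 1 Hoxc promoters. Of these 6, 4, 1 and 0 met both criteria, so the share speaks mainly for Hoxa and Hoxd. Hoxa13, a gene of limb and urogenital development, had the most with 35 CG, more than 97.0% of all promoters. Hoxd13, needed for digit formation, had 31. Hoxa5 had 28, and Hoxd1 and Hoxa6 had 24 each. At the other end Hoxa9 and Hoxd4 had 3 each, and 1 of the 2 starts of Hoxd11 had 2. Above the table's median of 6 CG were 19 of the 24, against 15211 of all 32851 promoters. Which of them lay under a peak was not analysed here.

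H3K4me3 peaks in the clusters were few for the number of genes. The WT library had 2 peaks in Hoxa, 0 in Hoxb, 1 in Hoxc and 1 in Hoxd. The HD library had 4, 0, 2 and 2. Set against the number of genes, this is 10.5 WT and 21.1 HD peaks per 100 listed Hox genes, against 84.5 and 89.6 peaks per 100 of the 21900 protein-coding genes named in RefSeq. WT peaks covered 5282 bp of the windows, 0.927%, and HD peaks 9363 bp, 1.64%. By cluster, the WT peaks covered 2662 bp in Hoxa, 1291 bp in Hoxc and 1329 bp in Hoxd, and the HD peaks 4265, 2637 and 2461 bp.

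**Figure D1:**
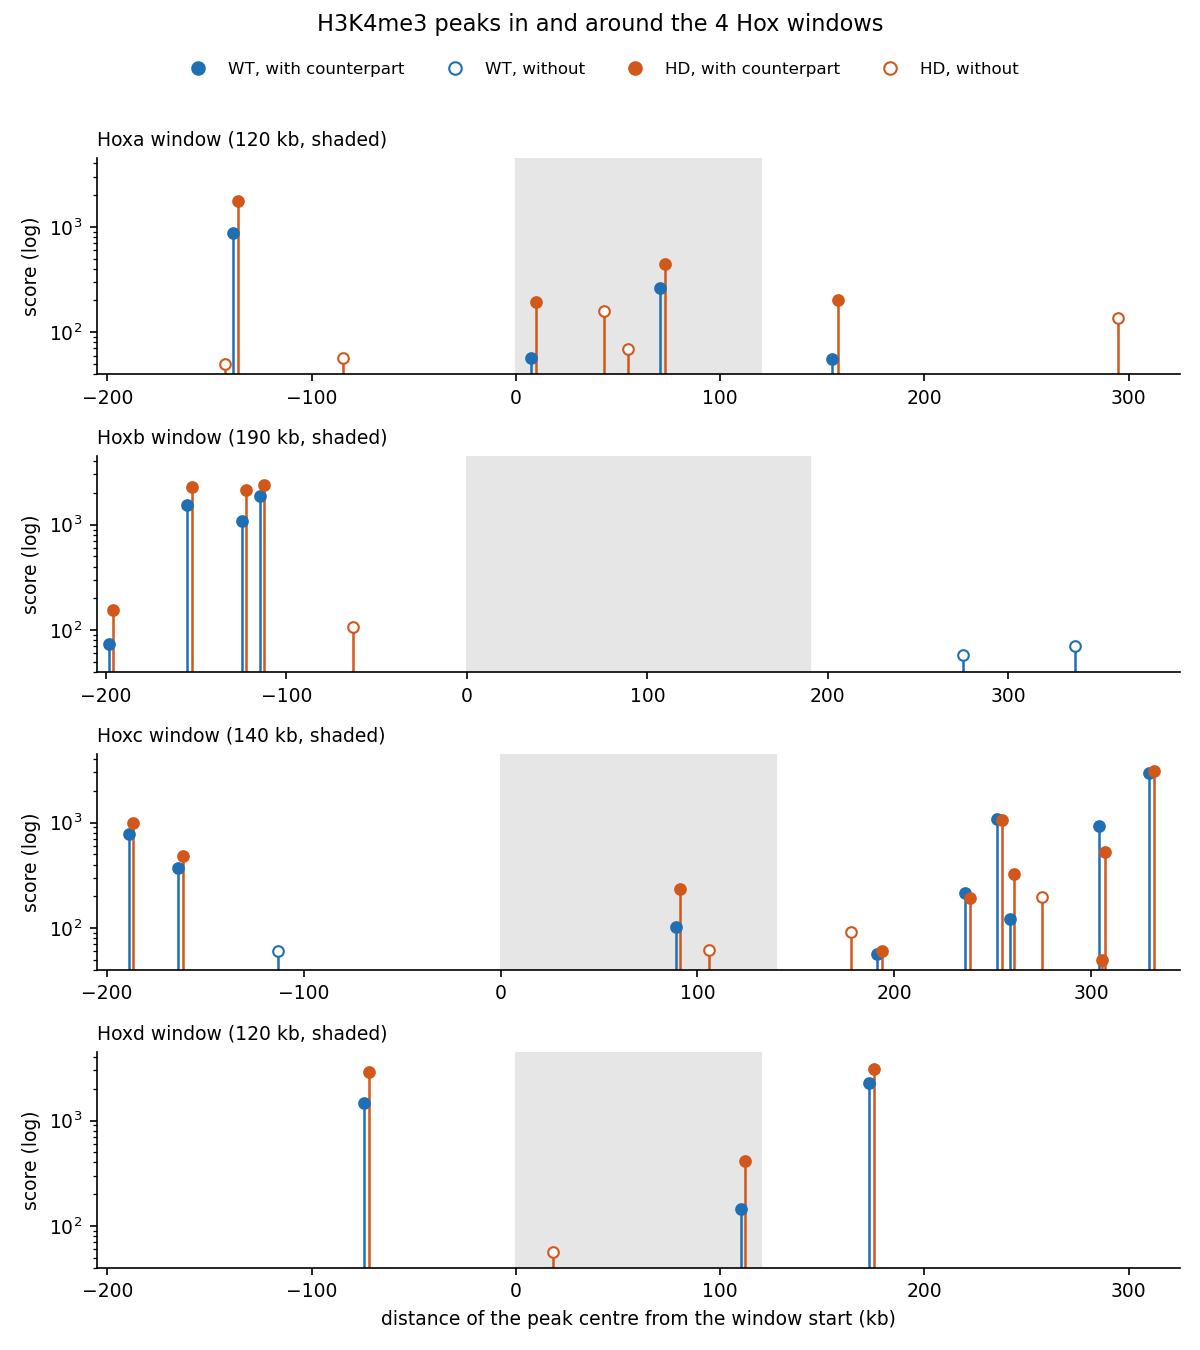
Peaks of the WT (blue) and HD (orange) libraries in the 4 Hox windows (shaded) and 200 kb to each side; the horizontal axis is the distance of the peak centre from the window start in kb and the vertical axis the score of the peak in its own list, on a log scale. Filled points have a counterpart in the other library and open points have none; the Hoxb window is empty, and no score inside a window exceeds 447.02.

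Beside the DNA around them, the clusters differed, but no window held more than 4 peaks per library, so the rates rest on few peaks. Hoxb and Hoxc were poorer in H3K4me3 than the 1 Mb on each side. Hoxc had 7.14 WT and 14.3 HD peaks per Mb, against 31 and 17 WT peaks and 35 and 19 HD peaks in its left and right flank. Peaks covered 0.922% of Hoxc in WT and 1.88% in HD, and from 3.39 to 7.65% of its flanks over both libraries. Hoxa and Hoxd lay in poorer surroundings. Hoxa had 16.7 WT and 33.3 HD peaks per Mb, more than the 12 and 4 WT peaks and the 14 and 5 HD peaks of its flanks. Hoxd had 8.33 WT and 16.7 HD peaks per Mb, against 7 WT peaks in each flank and 9 and 6 HD peaks. In covered length, WT Hoxd at 1.11% was below its flanks of 1.96 and 1.38%, and HD Hoxd at 2.05% was above its flanks of 1.85 and 1.14%. In Hoxa the covered length was 2.22% in WT, between its flanks of 2.65 and 0.834%, and 3.55% in HD, above its flanks of 2.24 and 0.984%.

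Pooled, the windows had 7.02 WT and 14.04 HD peaks per Mb and the flanks 15.5 and 16.5. The flanks were covered to 3.53% in WT and 3.35% in HD. Over the whole lists the density was 7.02 peaks per Mb in WT and 7.44 in HD, with 1.73% and 1.66% of the length covered. In WT the windows were thus at the average of the whole list in peak number and below it in covered length. In HD they were above it in peak number and close to it in covered length, 1.64% against 1.66%.

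**Figure D2:**
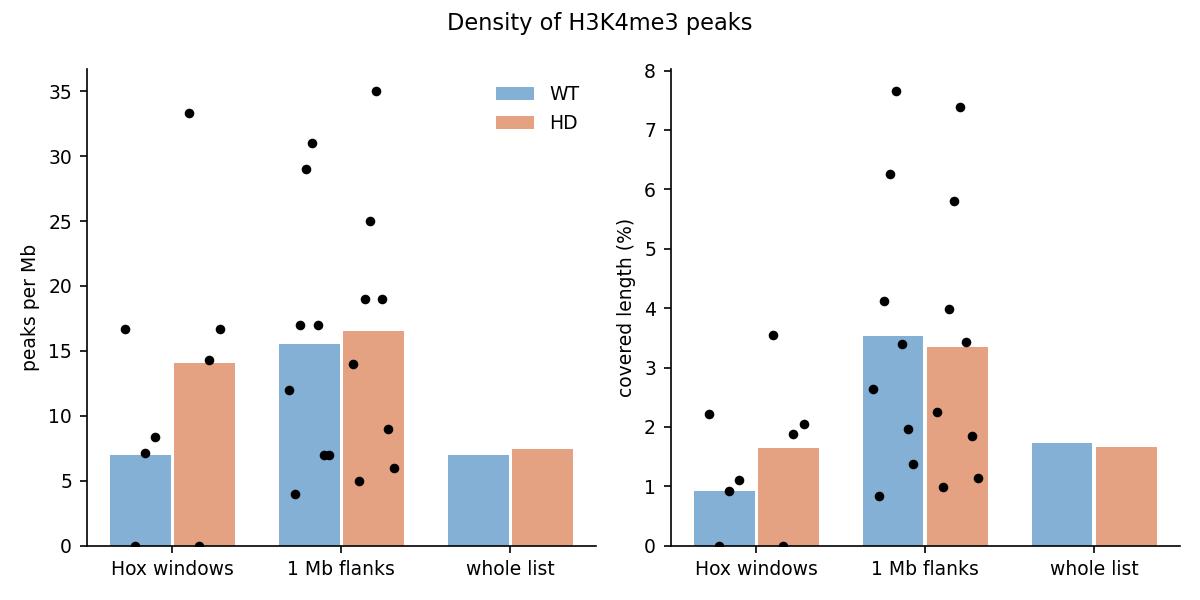
Number of peaks per Mb (left) and share of length covered by peaks in percent (right) in the 4 Hox windows, their 1 Mb flanks and the whole list; bars are the pooled value per library and dots the 4 windows or the 8 flanks. Peaks covered 0.927% of the pooled windows in WT and 1.64% in HD, against 3.53% and 3.35% of the flanks, and the dots of the windows overlap those of the flanks.

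Hoxb lay empty between dense flanks. Its 1 Mb flanks held 17 and 29 WT peaks and 19 and 25 HD peaks. The stretch without any WT peak ran from 95938102 to 96325267 on chromosome 11, 387 kb, and 7.40% of the 18494 gaps between neighbouring WT peaks were longer. In the HD list the stretch ran from 95986363 to 96637536, 651 kb, and 3.57% of 19610 gaps were longer. Any gap that spans the empty window has to be longer than its 190 kb. The median gap was 47.3 kb in WT and 43.4 kb in HD. Gaps were counted regardless of length, so these shares do not say how rare such a stretch is along the genome. Weak peaks set the ends that differed between the lists: the nearest WT peak on the right had a score of 57.77 and no HD counterpart, and the nearest HD peak on the left had a score of 105.9 and no WT counterpart. An empty window alone is common, since 47.3% of 13869 windows of 190 kb laid end to end along the chromosomes held no WT peak and 46.9% no HD peak.

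In the other clusters long parts of the window were empty too. In Hoxc the first peak lay 89.4 kb from the window start in WT and 89.3 kb in HD. In Hoxd the WT library had no peak over the first 110.6 kb, whereas the HD library had 1 there, and the peaks of HD left 93.1 kb between them. Hoxa was the cluster with the most peaks: 5.92% of 21965 windows of 120 kb held 4 or more HD peaks, and 21.1% held 2 or more WT peaks. Its peaks were short, though. Of the 583 windows with exactly 4 HD peaks, 99.1% had a longer covered length than the 4265 bp of Hoxa, with a median of 8331 bp. For the WT peaks of Hoxa this share was 92.9% of windows with as many peaks. Short covered length was not particular to Hoxa. The share was 81.6% in WT and 88.2% in HD for Hoxc, and 80.2% and 91.2% for Hoxd.

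The 4 places marked in both libraries were 2 in Hoxa, 1 in Hoxc and 1 in Hoxd. Near the start of the Hoxa window the WT peak lay at 52107922 to 52109061 on chromosome 6, 1140 bp wide with a score of 56.36, and the HD peak at 52108023 to 52109077, 1055 bp wide with a score of 195.37. Scores come from the authors' peak caller, run from 50.01 to 3233.06 in each list and hold within 1 list only. This WT peak was thus among the weakest of its list, and 2.92% of WT peaks scored lower. The second Hoxa place held the strongest peaks of the 4 clusters in both libraries. There the WT peak lay at 52171073 to 52172594, 1522 bp wide with a score of 263.39, and the HD peak at 52171143 to 52172339, 1197 bp wide with a score of 447.02.

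In Hoxc the shared place lay on chromosome 15, with the WT peak at 102829413 to 102830703, 1291 bp wide with a score of 102.19, and the HD peak at 102829281 to 102830734, 1454 bp wide with a score of 232.47. In Hoxd it lay on chromosome 2 near the end of the window, with the WT peak at 74600572 to 74601900, 1329 bp wide with a score of 145.11, and the HD peak at 74600276 to 74601868, 1593 bp wide with a score of 417.68. All 8 of these peaks ranked in the lower part of their lists. The share of the list with a lower score was at most 29.5% for the 4 WT peaks and 34.9% for the 4 HD peaks. The median score was 843 over the WT list and 1144 over the HD list.

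The length of the shared peaks did not move one way between genotypes. On the log2 scale, HD over WT length was -0.11 and -0.35 at the Hoxa places, 0.17 in Hoxc and 0.26 in Hoxd. The Hoxa peaks were thus 7.46% and 21.4% shorter in HD, and the Hoxc and Hoxd peaks 12.6% and 19.9% longer. The median of the 4 was 0.03 (range -0.35 to 0.26), against -0.090 (95% interval -0.093 to -0.087) over all 17367 shared regions. Shorter in HD were 2 of the 4, where 69.0% of all shared regions were shorter (exact Clopper-Pearson 95% interval for 2 of 4, 6.76 to 93.2%). With 4 places that interval holds the genome-wide share. None of the 4 changed over 1.5-fold, as 2.79% of all shared regions did towards shorter and 0.749% towards longer. Total length over the 4 places was 5282 bp in WT and 5299 bp in HD.

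Among regions of like WT score, within 1.25-fold, the 4 ratios fell on both sides. The Hoxd ratio was above 89.7% of 1200 such regions and the Hoxc ratio above 81.6% of 1264. Of the 1113 regions like the stronger Hoxa place, 85.0% had a higher ratio, and of the 824 like the weaker one, 59.1%. In Hoxd the added length lay on the left, where the HD edge was 296 bp outside the WT edge, while on the right it was 32 bp inside. In Hoxc the HD peak reached 132 bp further left and 31 bp further right. At the stronger Hoxa place the HD edges lay 70 bp inside on the left and 255 bp inside on the right, and at the weaker place 101 bp inside on the left and 16 bp outside on the right.

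**Figure D3:**
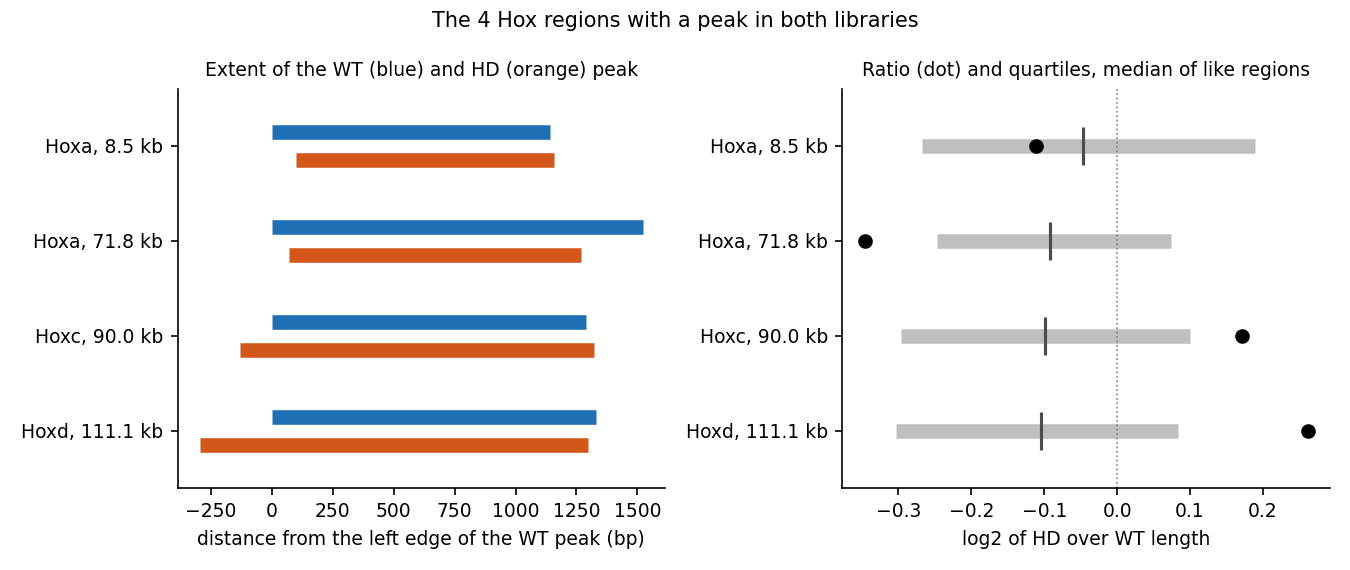
The 4 Hox regions with a peak in both libraries, named by cluster and distance from the window start: left, the extent of each peak in bp from the left edge of the WT peak; right, log2 of HD over WT length (dot) with the quartiles (bar) and median (line) of regions whose WT score lay within 1.25-fold. The Hoxa ratios are below 0, at -0.11 and -0.35, and the Hoxc and Hoxd ratios above 0, at 0.17 and 0.26.

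The extra Hox peaks of the HD library were 4 peaks that no WT peak overlapped, 2 in Hoxa, 1 in Hoxc and 1 in Hoxd. They added 4064 bp. In Hoxa they lay between the shared places, at 52141438 to 52142629, 1192 bp wide with a score of 157.17, and at 52153478 to 52154298, 821 bp wide with a score of 69.06. The Hoxc peak lay at 102843980 to 102845162, 1183 bp wide with a score of 62.2. The Hoxd peak lay at 74506333 to 74507200, 868 bp wide with a score of 56.91. The nearest WT peaks were 28.4, 16.8, 13.3 and 88.3 kb away. No WT Hox peak lacked an HD counterpart.

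In share, 4 of 8 HD Hox peaks had no counterpart (50%, interval 15.7 to 84.3%), against 9.30% of all HD peaks. For WT it was 0 of 4 (interval up to 60.2%), against 5.50% of all WT peaks. The peaks of the clusters were weak, and weak peaks often lacked a counterpart everywhere: of HD peaks with a score from 50 to below 75, 57.0% had none (54.7 to 59.3%), and of those from 75 to below 100, 38.3%. A limit of 200, chosen after the values were seen, kept all 4 HD Hox peaks without a counterpart and 1 of the 4 with one. Below it 4 of 5 thus had none, against 36.6% of all HD peaks below it. The choice of limit raised the Hox share, so nothing is read from its height. The intervals for 4 of 8 HD and 0 of 4 WT peaks cover counting error over peaks only. The HD interval lies above the 9.30% of the whole HD list, and the WT interval holds the 5.50% of the whole WT list. The HD share was lower under other settings. With both lists limited to their 18515 highest scores, 2 of 6 HD Hox peaks had none (33.3%, interval 4.33 to 77.7%) against 6.19% of the list. With a score of at least 100 in both lists it was 2 of 5 (40%, 5.27 to 85.3%) against 7.64%. Both of these intervals hold the value of the list. In the 1 Mb flanks the share was 11.4% of 132 HD peaks and 8.87% of 124 WT peaks.

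One of the 4 HD-only peaks stood above the weakest class. The Hoxa peak with the score of 157.17 had 1305 HD peaks of like score, of which 12.0% lacked a counterpart (10.3 to 13.9%). Only 84 of the 1825 HD peaks without a counterpart scored as high, itself included. For the other 3 the shares among peaks of like score were 49.7% in Hoxa, 56.4% in Hoxc and 57.7% in Hoxd, so a missing counterpart was as common as not at their scores. The list gives no reads below its threshold, so a peak absent from the WT list shows only that none was called there.

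**Figure D4:**
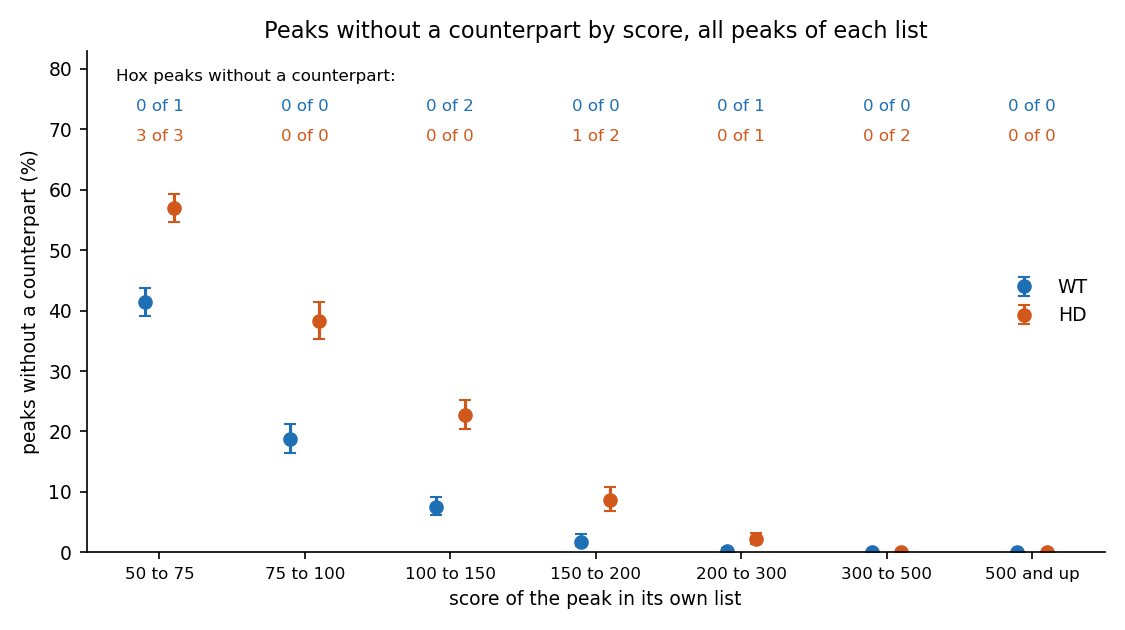
Share of all peaks without a counterpart in the other library, in percent, by score class of the own list (points; bars are exact 95% binomial intervals), with the number of Hox peaks without a counterpart of all Hox peaks in each class printed above. The share falls from 57.0% of HD peaks at scores of 50 to 75 to 8.71% at 150 to 200, the class that holds 1 of the 4 HD-only Hox peaks.

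Hox peaks were narrow. Their widths ran from 1140 to 1522 bp in WT (median 1310 bp) and from 821 to 1593 bp in HD (median 1188 bp), against medians of 2268 and 2054 bp over the lists. Narrow width went with low score in all peaks, so each was set beside the peaks of like score in its list. The 12 peaks lie at 8 places, 4 of them counted once in each library. Of the 4 WT peaks 3, and of the 8 HD peaks 7, were narrower than the median of peaks of like score. All 4 WT peaks and 4 of the 8 HD peaks lay inside the quartiles of such peaks. In WT the strongest Hoxa peak, for example, was 1522 bp wide against a median of 1752 bp (quartiles 1497 and 2104 bp). In HD the same place was 1197 bp against 1687 bp (1414.5 and 2071.5 bp), and 91.7% of like peaks were wider. The other shared Hoxa peak of HD, 1055 bp, was narrower than 86.9% of its like. The Hoxc peak found in HD only was the reverse: at 1183 bp it was wider than 80.1% of peaks of like score.

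**Figure D5:**
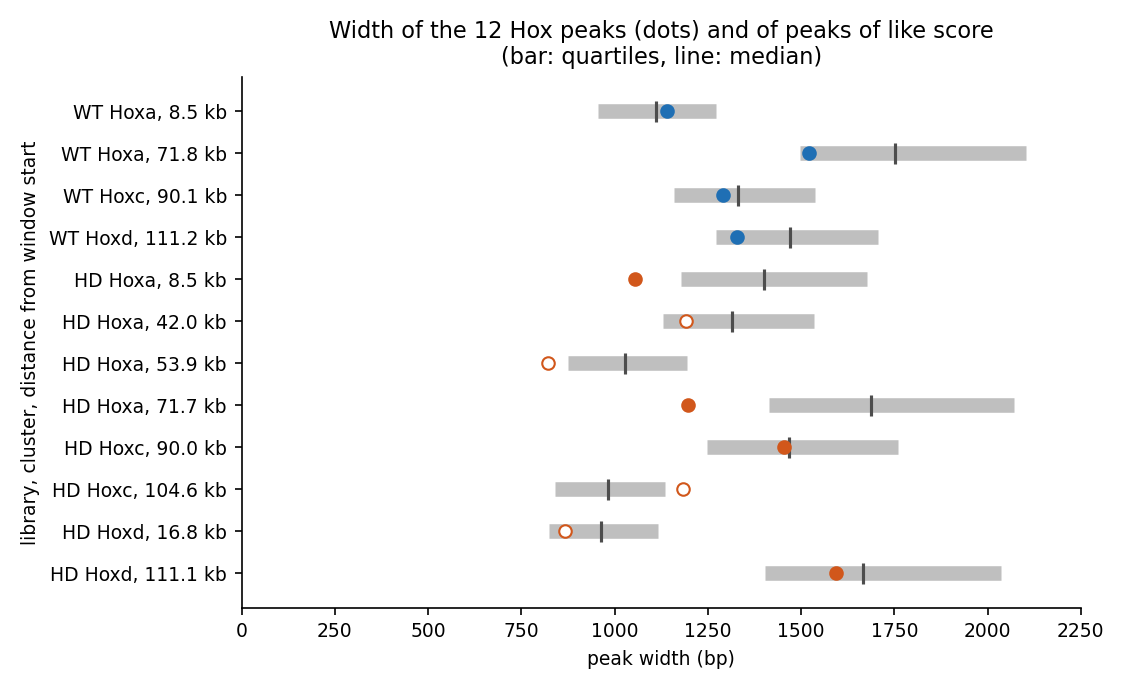
Width in bp of each of the 12 Hox peaks (dots; open where the other library has no counterpart), by library, cluster and distance from the window start, with the quartiles (bar) and median (line) of the peaks in the same list whose score lay within 1.25-fold. Both shared Hoxa peaks of HD lie below the bar, at 1055 and 1197 bp.

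Where the peaks sat along the gene order could be read only by side. In RefSeq's table for GRCm38.p6 the listed genes run from Hoxa2 to Hoxa13 along chromosome 6, from Hoxb13 to Hoxb1 along chromosome 11, from Hoxc13 to Hoxc4 along chromosome 15 and from Hoxd13 to Hoxd1 along chromosome 2. On the side of the window's midpoint with the lower-numbered genes lay 3 of 4 WT peaks and 6 of 8 HD peaks. The exceptions were the stronger Hoxa place in both libraries and the HD-only Hoxd peak, 16.8 kb from the window start on the Hoxd13 side. The window bounds are not those of the genes, so the midpoint only roughly divides a cluster. No test was made of this split of 8 places.

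Just outside the windows, the closest peaks belonged to Hoxa and Hoxc. On chromosome 6 both libraries had a peak 35.6 kb (WT) and 35.7 kb (HD) past the Hoxa window, at 52255604 to 52256801 in WT with a score of 55.6 and at 52255713 to 52257006 in HD with a score of 204.09. On chromosome 15 the HD library had a peak at 102916171 to 102917301, 36.2 kb past the Hoxc window, with a score of 92.1 and no WT counterpart. Around Hoxd the neighbours were strong and shared: before the window the WT peak, 72.0 kb away, had a score of 1464.53 and the HD peak, 72.3 kb away, 2913.45. After it the WT peak, 53.2 kb away, had a score of 2266.61 and the HD peak, 53.3 kb away, 3100. The highest score inside the Hoxd window was 145.11 in WT and 417.68 in HD.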

How the data were processed

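The authors deposited 1 list of H3K4me3 peaks per library, called per library from 1 pool of animals, with a position and a score per peak. The deposited score has no named unit and depends on its own library's depth, which is unknown, so it was used within a list only. Peak names carry the name MACS, per the files; how it was run is not given in the sources used here. Build mm9 and the tools BWA 0.5.9, SAMtools and CASAVA 1.8.2 are listed in the submitters' processing notes.

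Peaks overlapping a window counted whole, and 1 bp of overlap made a counterpart. Overlapping peaks were joined into regions, whose covered length was compared. The chromosomes were taken to end at the last peak. Python 3.11.15, numpy 2.4.6, pandas 2.3.3, scipy 1.17.1 and matplotlib 3.10.9 were used, and list handling was tested on simulated data. Intervals are exact 95% binomial (Clopper-Pearson) or order-statistic intervals, for counting error only. With 1 library per genotype no p-value was computed. Every region in the windows is reported. Promoters with a peak, cofactor genes and tissue markers were planned and not analysed here, since positions were not moved between builds. A minimum score, equal list lengths, merged peaks, stricter or looser overlap and other window rules were tried as alternatives. Members and lists were chosen with earlier results of these data known.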

Additional observations from a re-analysis of the deposited data

How the results depend on the processing

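Of 46 values recomputed under 8 alternatives, 36 equalled the reported value and 43 stayed within 1.5-fold of it (counts and lengths) or within its interval or range (shares and medians). The 3 others concern the HD library. With a score of at least 100 in both lists it had 5 Hox peaks in place of 8, and 2 in place of 4 had no counterpart, of which 1 had a WT peak below that score. With equal numbers of top scoring peaks 2 had no counterpart, because HD peaks below 62.37 dropped out. The median log2 length ratio was 0.17 with the minimum score, over 3 places. Other overlap rules, merging within 1 kb, peaks wholly inside the window and windows widened by 20 kb changed nothing in the windows. They had little to act on. The HD-only peaks lay at least 13.3 kb from any WT peak, and the nearest peak outside a window was 35.6 kb away. The range of the ratios, -0.35 to 0.26, and the interval of the share shorter in HD, 6.76 to 93.2%, were also wide. The number of values kept is therefore no measure of robustness. No paired analysis was possible because there is 1 library per group. Depth is unknown, so how many reads lay where a list has no peak cannot be given.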
